A study of Mus musculus with 3 samples.

Results

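ATP-binding cassette (ABC) genes encode transporters that use ATP to move lipids, bile salts, drugs, peptides and conjugated wastes across membranes, together with a few soluble relatives that act on the ribosome. The family was taken as every gene whose single array symbol is Abc followed by a subfamily letter from A to G and a number. It came to 45 genes of 18193 on the array. Each gene was read by its probe set with the highest mean over all arrays, and 35 of the 45 were bright enough to be fitted.

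Total liver RNA came from mice of mixed background, 3 months old, killed 1 week after 1 intraperitoneal dose of 400 microL of virus. The control virus (MUP-EGFP-AAV8, 2 mice) and the Cre virus (MUP-iCre-AAV8, 1 mouse) were adeno-associated viruses, and iCre is a recombinase that cuts out floxed DNA. Floxed Hnf4a alleles are given to the mice of both viruses in the series design, but in the sample labels the genotype of the controls is wild type and that of the Cre mouse HNF4alpha knockout, so genotype and virus cannot be told apart. Each mouse gave 1 single-colour array, and the sources used here do not state what MUP drives or what share of hepatocytes the virus reached. Whole liver was measured, so fewer cells of a type and less RNA per cell cannot be told apart.

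In the liver, bile is made by ABC pumps of the canalicular membrane, the face of the hepatocyte that lines the finest bile channels: they export bile salts, phosphatidylcholine, conjugated bilirubin and sterols, each through its own pump. Pumps on the basolateral face, towards the blood, return conjugates and other solutes to plasma. Hnf4a encodes HNF4alpha, a nuclear receptor on which much of hepatocyte gene expression depends.

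The 3 arrays were alike in level, with medians between 4.15 and 4.18 on the log2 scale, and correlated with each other over probe sets, which do not count as replicates (Pearson's r 0.993 for the control pair, 0.970 and 0.972 for Cre with control 1 and 2). Hnf4a was lower in the Cre liver on all 4 of its probe sets, by 0.55 to 1.18 log2 units, and 1 of them passed over all probe sets (1421983_s_at, 7.69 and 7.72 against 6.52, adjusted p = 0.0364 by limma). Where these probes lie relative to the floxed DNA was not analysed here. Among hepatocyte markers Alb, the albumin gene, was at 14.75 and 14.72 in the controls against 14.62 in the Cre liver and did not pass. Of the 6 hepatocyte markers measured, all bright in every liver, 5 lay below both controls and 3 fell (differences of -2.30 for Apoc3, -1.02 for Tat and -0.71 for Hpx). Among all fitted genes 33.6% lay below both controls and 5.21% fell. The summed level of the 6 markers on the linear scale was 108663 and 109951 in the controls against 84593 in the Cre liver, and none was at 0. The drop of this sum was set mainly by Apoc3 (14.13 and 14.21 against 11.87), while Apoa1 lay above both controls (14.33 and 14.36 against 14.44). The part of hepatocyte content in the values of the ABC genes was not tested. Precision is limited by the number of arrays, since every Cre value is that of 1 mouse.

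All differences are log2 values, Cre virus minus the mean of the controls, and carry the moderated standard error (SE) of limma. A gene rose or fell where its Benjamini-Hochberg adjusted p over 12735 fitted genes, from limma's two-sided test, was under 0.05. The test takes the spread from the 2 controls and assumes that the lone Cre array varies like them.

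In the Cre liver the ABC family split. Abcc6, which governs the release of ATP from hepatocytes and so the supply of plasma pyrophosphate, fell 23.0-fold, and Abcb6, a porphyrin transporter, and Abca6 fell more modestly. Both P-glycoprotein genes (Abcb1a and Abcb1b), the conjugate pumps Abcc2 and Abcc3, the sterol exporter Abcg1 and the paralogues Abca8a and Abca8b rose. In all, 7 of 35 fitted members rose (20%), against 6.71% of all fitted genes, and 3 fell (8.57%), against 5.21%. Among the rises, Abcb1a with Abcb1b and Abca8a with Abca8b are neighbouring paralogues whose probe sets may read each other, so the members are not independent. By size alone, without a test, 6 members lay at least 1 log2 unit above both controls (17.1%, against 3.67% of fitted genes). At least 1 log2 unit below both lay 2 (5.71%, against 3.72%). The median difference over the 35 was 0.07, beside 0.09 over all fitted genes, but the median absolute difference was 0.53 beside 0.30, while the controls differed from each other by a median of 0.15 in both sets. By any amount, 19 of the 35 lay above both controls and 11 below both, against 49.7% and 33.6% of all fitted genes. Of the 25 members that did not pass, 12 lay above both controls, 8 below both and 5 between them, and 12 of the 25 were within 0.25 of the control mean.

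**Figure D1:**
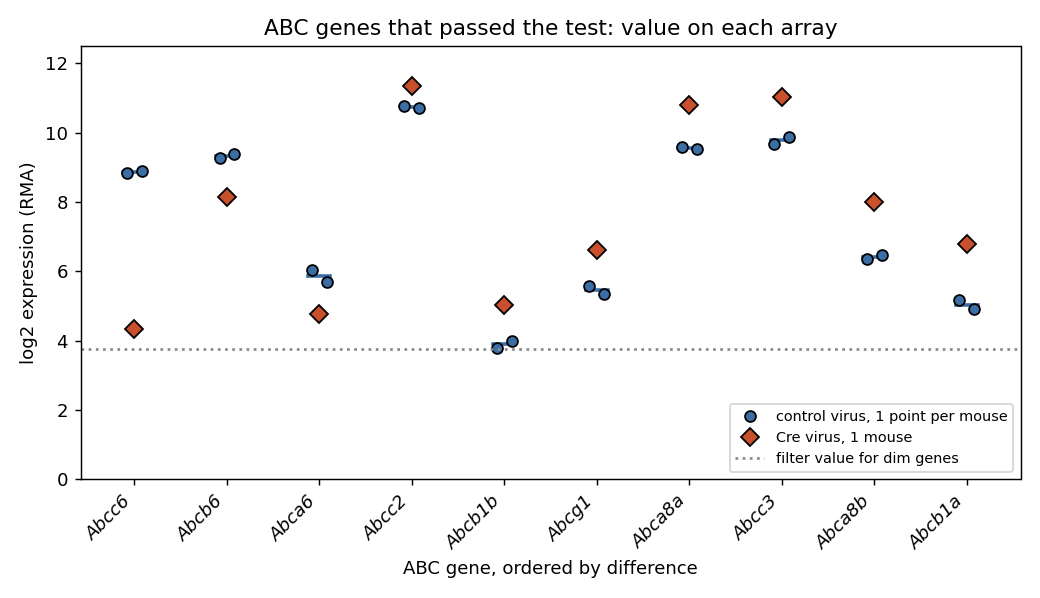
Log2 expression on each array of the 10 ABC genes that passed the test, ordered by difference; circles are the 2 control mice with a bar at their mean, diamonds the Cre mouse, and the dotted line the value of 3.77 used as the filter on dim genes. The Cre value lies outside both controls for each gene, and that of Abcc6 (4.34) lies just above the dotted line.

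Abcc6 was the member with the largest difference. It was at 8.83 and 8.89 in the control livers against 4.34 in the Cre liver, where the median of all probe sets was 4.16. The controls almost coincided and the Cre liver stood far below them (-4.52 ± 0.14 SE, adjusted p = 0.0011; -4.49 against control 1 alone and -4.55 against control 2). It passed in all 10 other settings, with differences between -4.53 and -4.51. Because the Cre value came close to the array background, where RMA compresses differences, the size of the fall is uncertain, and 1 probe set reads this gene.

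Abcb6, which carries porphyrins and is found on mitochondria, lysosomes and the red cell surface, was at 9.28 and 9.39 in the controls against 8.13 in the Cre liver. The Cre liver lay clearly below both controls, a 2.31-fold fall (-1.21 ± 0.13 SE, adjusted p = 0.0154). Abca6 was at 6.04 and 5.70 against 4.76. Here the controls spread more, and the fall (-1.11 ± 0.21 SE, adjusted p = 0.0495) was at the edge of the threshold: it did not pass in 5 of 10 other settings, with adjusted p between 0.0172 and 0.0844.

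Among the genes that rose, Abcb1a had the largest difference. Abcb1a and Abcb1b both encode P-glycoprotein, a drug efflux pump that humans make from a single gene. Abcb1a was at 5.16 and 4.91 in the controls against 6.79 in the Cre liver, 3.38-fold higher (1.76 ± 0.19 SE, adjusted p = 0.0155). Its other probe set (1419758_at), dim in the controls, also lay above both, at 3.13 and 2.69 against 4.35. Abcb1b was at 3.78 and 4.0 against 5.02 (1.13 ± 0.20 SE, adjusted p = 0.0404), and its adjusted p reached 0.0673 without a filter and 0.0536 without shared or mixed probe sets, those whose suffix marks that they can read more than 1 transcript. The control values of Abcb1b sit just above the filter value of 3.77, so its size is uncertain. The paralogues are close in sequence, and a probe set of one can read the other.

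Abca8b was at 6.35 and 6.47 in the controls against 8.0 in the Cre liver, and Abca8a at 9.59 and 9.53 against 10.81. These little-characterised members of subfamily A, which have ties to lipid transport, were 3.01-fold (1.59 ± 0.15 SE, adjusted p = 0.0118) and 2.38-fold higher (1.25 ± 0.11 SE, adjusted p = 0.0104), well outside the spread of the controls. Each had 1 probe set, and close sequence again means that the pair may be read in part together. Both passed in all 10 other settings.

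Sequences upstream of the start sites are shown for the 6 of 10 members past the test that have an entry in the RefSeq promoter table: the neighbouring paralogues Abcb1a and Abcb1b, and Abca8a and Abca8b, with Abcb6, which fell, and Abcc2, which rose. They are the 250 bases before the RefSeq start in build GRCm38.p6, read 5′ to 3′ on the strand of the gene: Abcb1a chr5:8566841-8567090 (+), Abcb1b chr5:8797897-8798146 (+), Abca8a chr11:110095938-110096187 (-), Abca8b chr11:109995846-109996095 (-), Abcb6 chr1:75180393-75180642 (-) and Abcc2 chr19:43782058-43782307 (+). Capitals mark matches, on either strand, to 4 motifs: an HNF4 site (CAAAGTNCA), the DR1 repeat bound by HNF4 and related receptors (AGGNCA 2 times with 1 base between), the core of the antioxidant response element (TGACNNNGC) and the CCAAT box, whose reverse match reads ATTGG.
Abcb1a: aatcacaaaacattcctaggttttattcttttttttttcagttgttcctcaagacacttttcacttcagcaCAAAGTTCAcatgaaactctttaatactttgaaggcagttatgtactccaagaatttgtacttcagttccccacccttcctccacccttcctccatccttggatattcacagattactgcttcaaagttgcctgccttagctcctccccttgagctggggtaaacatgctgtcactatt
Abcb1b: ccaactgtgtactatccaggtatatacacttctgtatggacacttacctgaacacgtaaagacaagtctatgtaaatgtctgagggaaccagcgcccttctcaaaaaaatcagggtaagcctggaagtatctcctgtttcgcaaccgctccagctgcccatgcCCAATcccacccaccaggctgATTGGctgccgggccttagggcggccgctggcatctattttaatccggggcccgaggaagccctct
Abca8a: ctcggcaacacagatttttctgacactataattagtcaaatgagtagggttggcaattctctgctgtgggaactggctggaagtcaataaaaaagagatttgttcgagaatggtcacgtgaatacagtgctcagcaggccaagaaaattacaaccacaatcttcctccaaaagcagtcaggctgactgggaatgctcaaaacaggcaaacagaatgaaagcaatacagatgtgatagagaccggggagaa
Abca8b: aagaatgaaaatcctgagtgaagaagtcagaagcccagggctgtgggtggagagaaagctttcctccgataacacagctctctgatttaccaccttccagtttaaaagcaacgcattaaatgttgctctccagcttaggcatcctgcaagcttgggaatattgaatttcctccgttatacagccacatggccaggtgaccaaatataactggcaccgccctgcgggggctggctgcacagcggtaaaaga
Abcb6: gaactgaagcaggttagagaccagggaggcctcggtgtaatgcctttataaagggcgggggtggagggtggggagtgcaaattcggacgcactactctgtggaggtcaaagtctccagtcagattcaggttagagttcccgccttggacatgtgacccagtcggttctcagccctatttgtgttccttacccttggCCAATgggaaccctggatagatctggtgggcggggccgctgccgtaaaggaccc
Abcc2: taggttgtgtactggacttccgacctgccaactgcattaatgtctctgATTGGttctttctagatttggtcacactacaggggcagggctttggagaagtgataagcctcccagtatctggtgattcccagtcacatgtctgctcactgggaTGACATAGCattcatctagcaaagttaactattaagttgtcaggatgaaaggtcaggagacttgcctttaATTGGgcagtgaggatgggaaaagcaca

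RefSeq windows were matched by symbol for 35 of the 45 members, 42 windows in all, since some genes have several starts. Abcc6, Abcc3, Abcg1 and Abca6, which passed the test, had none. The HNF4 letters occurred in 1 member window, that of Abcb1a, where they lie 179 to 171 bases before the start, and in 1.19% of all 32851 windows of the same length. The direct repeat occurred in 0 member windows and 0.338% of all windows. The antioxidant core occurred in 4 member windows (9.52%), of Abcc2, Abcc4 and Abcc10, against 10.2% of all windows, and the CCAAT box in 12 (28.6%), among them Abcb1b, Abcb6 and Abcc2, against 33.8%. The windows of Abca8a and Abca8b held none of the 4. A match describes letters in a short window and not a site that is used.

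3 runs of ABC genes lie side by side on a chromosome with no other protein-coding gene between them in the RefSeq gene table, and they behaved unlike each other. On chromosome 5, Abcb1a (1.76), Abcb1b (1.13) and Abcb4 (0.66) all lay above both controls, of which the first 2 passed. On chromosome 11, the order Abca8b, Abca8a, Abca9, Abca6 and Abca5 gave 1.59, 1.25, 0.12, -1.11 and 0.53, so that a gene that fell lies between members that rose or did not pass. Abca9 was at 5.06 and 5.09 against 5.20 (adjusted p = 0.653), and Abca5, a lysosomal transporter, at 6.76 and 6.60 against 7.21 (0.53 ± 0.16 SE, adjusted p = 0.113). On chromosome 17, Abcg5 and Abcg8 were both lower without passing.

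**Figure D2:**
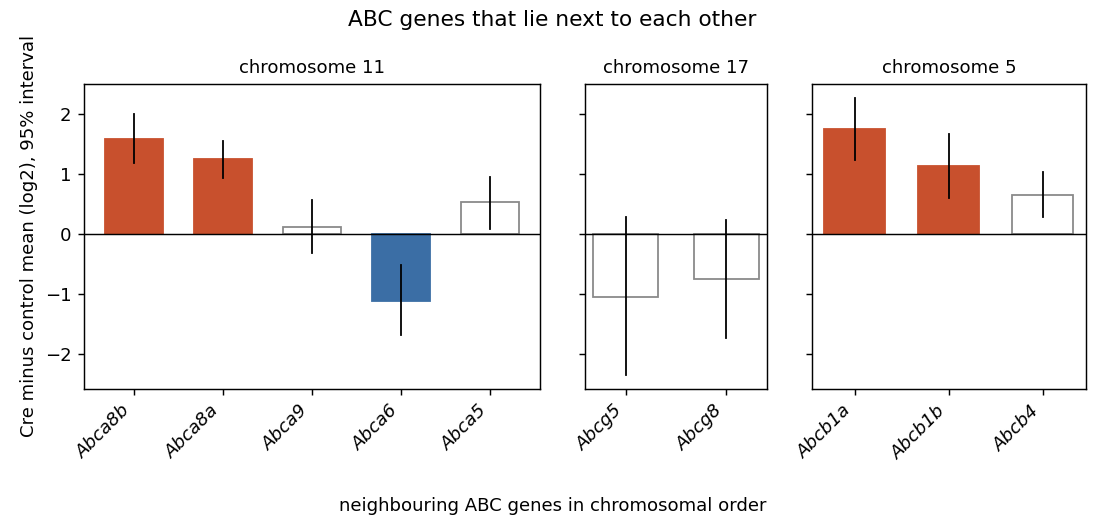
Cre minus control mean (log2, bars from 0) of ABC genes that neighbour each other, in chromosomal order, with limma's 95% interval as a line; filled bars passed the test. The chromosome 11 run holds differences from -1.11 (Abca6) to 1.59 (Abca8b), whereas the 3 genes on chromosome 5 are all above 0.

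Of 8 genes for canalicular pumps, all fitted, 3 rose (Abcb1a, Abcb1b and Abcc2), with a median of 0.46 over the 8, where 6.71% of all fitted genes rose. By limma 0 of the 8 fell, and 0 lower ones had an unadjusted p under 0.05, which for 8 genes is near the background of 5.21% that fell. Abcb11, the bile salt export pump, was at 11.45 and 11.24 in the controls against 11.65 in the Cre liver. The Cre value was above both by less than the controls differed from each other (0.30 ± 0.13 SE, adjusted p = 0.205; 95% interval -0.05 to 0.66). Abcb4, the phosphatidylcholine exporter, was at 10.54 and 10.76 against 11.31 (0.66 ± 0.14 SE, adjusted p = 0.0581), above both controls, and its adjusted p lay between 0.0147 and 0.1 over 10 other settings, 4 of which it passed. Abcc2, which exports conjugated bilirubin, was at 10.76 and 10.71 against 11.35, a 1.53-fold rise (0.61 ± 0.10 SE, adjusted p = 0.0377). That call was lost with eBayes without an intensity trend (adjusted p = 0.0844) and without a filter (adjusted p = 0.0623), and its 1 probe set is of the shared kind.

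Abcg5 and Abcg8 form the joined pair that exports cholesterol and plant sterols into bile. Abcg5 was at 10.27 and 9.16 in the controls against 8.68 in the Cre liver, and Abcg8 at 8.36 and 7.57 against 7.22. Both genes were higher in control 1 than in control 2, by 1.10 and 0.79, and lowest in the Cre liver. The controls spread so widely that neither passed (Abcg5 -1.04 ± 0.48 SE, adjusted p = 0.232, 95% interval -2.35 to 0.28; Abcg8 -0.75 ± 0.36 SE, adjusted p = 0.246, 95% interval -1.73 to 0.24). Against control 1 alone Abcg5 was at -1.59 and Abcg8 at -1.14, and against control 2 alone at -0.48 and -0.35. RefSeq gives Abcg8 a further start, on the other side of that of Abcg5, whose window (chr17:84676052-84676301) holds none of the 4 motifs. From their nearest RefSeq starts they are transcribed away from each other, with 109 bases between, at chr17:84683012-84683120 in GRCm38.p6. This stretch is shown because the pair varied together over the 3 livers. The stretch is read on the plus strand, that of Abcg8, and holds none of the 4 motifs, so it has no capitals. The window of 250 bases before this nearest Abcg8 start reaches beyond the stretch and holds 2 CCAAT boxes there.
Abcg5-Abcg8: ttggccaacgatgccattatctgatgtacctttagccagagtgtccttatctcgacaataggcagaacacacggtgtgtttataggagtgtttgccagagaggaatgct

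Abcg2, the breast cancer resistance protein, another canalicular drug pump, was at 10.09 and 9.92 against 9.84. Its difference was no larger than that between the controls (-0.16 ± 0.13 SE, adjusted p = 0.450).

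Among the pumps of the basolateral face, differences ran from -4.52 to 1.26, with Abcc6 alone at the lower end. Of 6 listed genes 5 were fitted, of which Abcc3 rose and Abcc6 fell. The shares among all fitted genes were 6.71% that rose and 5.21% that fell. Abcc3, which returns bile acid and glucuronide conjugates to blood, was at 9.68 and 9.88 in the controls against 11.04 in the Cre liver, 2.39-fold higher (1.26 ± 0.14 SE, adjusted p = 0.0155), and it passed in all 10 other settings. Abcc1, an exporter of glutathione conjugates, was at 3.78 and 3.47 against 4.21 (0.58 ± 0.22 SE, adjusted p = 0.169). It was dim in the controls and the only member to enter the fit through its Cre value. Abcc5, which exports cyclic nucleotides, was at 6.5 and 6.06 against 6.18, between the controls, and Abcc10 at 4.09 and 4.06 against 3.82 (-0.25 ± 0.18 SE, adjusted p = 0.388). Abcc4, a basolateral exporter of bile acids and cyclic nucleotides, was too dim to be fitted, at 3.25 and 3.50 against 3.71.

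**Figure D3:**
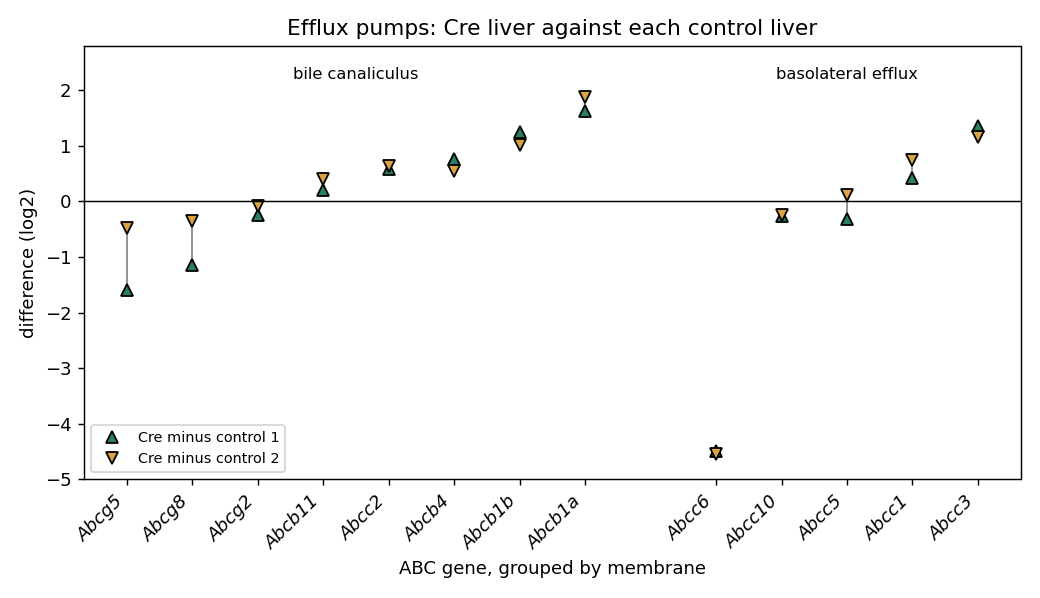
Difference (log2) of the Cre liver from each control liver separately for the fitted ABC pumps of the bile canaliculus and of the basolateral face; triangles pointing up are against control 1 and triangles pointing down against control 2. Abcg5 and Abcg8 depend on the control used (-1.59 and -0.48 for Abcg5), and Abcc6 does not (-4.49 and -4.55).

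Carriers and partners that work beside these pumps were read from the same fit. Of 10 fitted genes of basolateral uptake and exchange, 4 fell and 2 rose, with a median of -0.48, beside 5.21% that fell and 6.71% that rose among all fitted genes. The bile acid uptake carrier Slc10a1 fell 7.03-fold (12.04 and 12.30 against 9.36) and Slco2b1 30.5-fold (9.92 and 9.87 against 4.96). Of 12 genes for canalicular partners and membrane traffic, 4 fell and none rose, with a median of -0.12, and no rise in 12 is near the background share. Those that fell were Slc47a1, an organic cation extruder (-5.29 ± 0.15 SE), the scaffold genes Pdzk1 (-3.64 ± 0.18 SE) and Slc9a3r1 (-1.51 ± 0.15 SE), and Rdx (-0.61 ± 0.11 SE), which encodes radixin, a linker of canalicular membrane proteins to actin. Atp8b1, the lipid flippase of the canalicular membrane, was at 7.91 and 7.78 against 7.80 and did not pass.

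Sterol and phospholipid exporters outside the canaliculus differed in response. Abcg1, which loads cholesterol onto lipoproteins, was at 5.58 and 5.33 in the controls against 6.61 in the Cre liver, 2.23-fold higher (1.16 ± 0.19 SE, adjusted p = 0.0346). Its second probe set (1455221_at) also lay above both controls, by less (4.81 and 4.61 against 5.07), and with probe sets averaged it no longer passed (0.76, adjusted p = 0.051). Without a filter its adjusted p was 0.0617. Abca1, which starts the formation of high-density lipoprotein, was at 10.45 and 10.31 against 10.42, between the controls (0.03 ± 0.12 SE, adjusted p = 0.878; 95% interval -0.30 to 0.36). Abca7, a lipid transporter with a part in phagocytosis, was at 5.21 and 5.18 against 5.97 (0.77 ± 0.16 SE, adjusted p = 0.0564). In all, 1 of 6 fitted genes of this group rose, and Abca2, Abca3 and Abcg4 were within 0.25 of the control mean on their brightest probe set. Further probe sets of Abca3 lay below both controls (1425496_at, 7.47 and 7.51 against 7.20) and above both (1451869_at, 3.70 and 4.05 against 4.14). That of Abcg4 (1424437_s_at) lay below both, at 4.52 and 4.34 against 4.07. Among all fitted genes 6.71% rose and 5.21% fell, so for 6 genes 1 rise is near the background. The same shares stand beside the sterol handling partners. Among 10 sterol handling partners Npc1, which releases cholesterol from lysosomes, rose (0.85 ± 0.12 SE, adjusted p = 0.0275), and Lcat, which esterifies plasma cholesterol, fell (-0.62 ± 0.11 SE, adjusted p = 0.0385).

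Abcg1 and Abca7 are also macrophage genes, and macrophage markers lay higher in the Cre liver. Of 9 Kupffer cell and macrophage markers, 8 lay above both controls and 0 below both, 1 passed (Marco, 1.88 ± 0.16 SE), and their summed level on the linear scale was 1062 and 1569 in the controls against 2030 in the Cre liver. No marker of the list was at 0. Among all fitted genes 49.7% lay above both controls and 33.6% below both. The lean upwards was not particular to macrophage markers. Of 8 stellate cell markers, 7 lay above both controls and 0 below both, and of 7 sinusoidal endothelial markers 5 lay above both and 1 below both. The part of macrophages in the differences of Abcg1 and Abca7 was not tested. Cholangiocyte markers, of which Krt7, Krt19 and Cldn7 were too dim to be fitted, summed to 68 and 81 against 160. The higher sum in the Cre liver was set mainly by Sox9, which rose (3.87 and 4.82 against 6.69, a difference of 2.35). Of 7 sinusoidal endothelial markers, 0 passed by limma (2 at an unadjusted p under 0.05), with sums of 1652 and 1939 against 1790. Stellate cell markers summed to 2254 and 2422 against 2957, and 0 of 8 passed by limma (1 at an unadjusted p under 0.05). Lymphocyte and neutrophil markers were dim, with 3 fitted in each list and 0 passing by limma or at an unadjusted p under 0.05.

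Of the members on peroxisomes and lysosomes, Abcd3, which brings branched and bile acid intermediates into peroxisomes, was at 12.39 and 12.58 in the controls against 12.51 in the Cre liver, between them (0.03 ± 0.12 SE, adjusted p = 0.877; 95% interval -0.29 to 0.36). Abcd4, a lysosomal protein needed for cobalamin release, was at 6.5 and 6.23 against 6.01 (-0.35 ± 0.19 SE, adjusted p = 0.285). None of the 3 fitted genes of peroxisome and lysosome passed by limma, and 0 had an unadjusted p under 0.05. For 3 genes this is near the background of 11.9% called in either direction. Among 11 fitted partners of peroxisomal oxidation, Ehhadh rose (2.63 ± 0.10 SE) while Slc27a2 (-0.76 ± 0.09 SE) and Scp2 (-0.51 ± 0.08 SE) fell. Over all fitted genes 6.71% rose and 5.21% fell.

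Of 3 fitted mitochondrial members Abcb6 fell and the others did not pass. Abcb10, an inner membrane protein that supports heme synthesis, was at 7.91 and 7.77 against 7.30 (-0.54 ± 0.15 SE, adjusted p = 0.0942). The Cre value was below both controls, as on a second probe set (1416403_at, 6.38 and 6.45 against 5.58). After quantile normalization Abcb10 was called too, as 2 of the 3 were. Abcb8 was at 6.61 and 6.58 against 6.66. Heme and iron-sulfur partners gave 1 fall in 9, Glrx5 (-0.85 ± 0.10 SE), and no rise. Among all fitted genes 5.21% fell and 6.71% rose, so for 9 genes these counts are near the background. Abcb6 and Abcb10 are strongly used by red cell precursors. Of the 5 markers of these cells measured, 2 were fitted and both fell: Alas2, the red cell enzyme that starts heme synthesis, was at 8.61 and 8.92 against 5.49, and Klf1 at 6.36 and 6.24 against 4.39. The other 3 (Hba-a1, Epb42 and Slc4a1) were too dim to be fitted, at 2.62 to 3.37 over all livers. The summed linear level of the 5 was 496 and 586 in the controls against 89 in the Cre liver, set mainly by Alas2 and Klf1, and none was at 0. The part of such cells in the lower Abcb6 and Abcb10 values was not tested.

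The soluble members that act in translation were all fitted. Abce1, which recycles ribosomes, was at 8.53 and 8.61 in the controls against 8.91 in the Cre liver (0.33 ± 0.13 SE, adjusted p = 0.170). Abcf2 was at 7.04 and 6.95 against 6.37, below both controls (-0.62 ± 0.15 SE, adjusted p = 0.0742). Abcf1 and Abcf3 were within 0.25 of the control mean on their brightest probe set. Further probe sets of Abcf1 differed in sign, with 1426921_at below both controls (8.06 and 7.81 against 7.53) and 1452236_at above both (7.97 and 7.89 against 8.09). Of these 4 genes 0 passed by limma, 1 had an unadjusted p under 0.05, and 1 was called after quantile normalization. For 4 genes a count of 0 is near the background of 11.9% called in either direction. Of the channel regulators, Abcc9, a subunit of ATP-sensitive potassium channels, was at 7.95 and 7.87 against 8.36 (0.45 ± 0.13 SE, adjusted p = 0.110), and a second probe set (1435751_at) lay between the controls at 5.68 and 5.80 against 5.73.

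**Figure D4:**
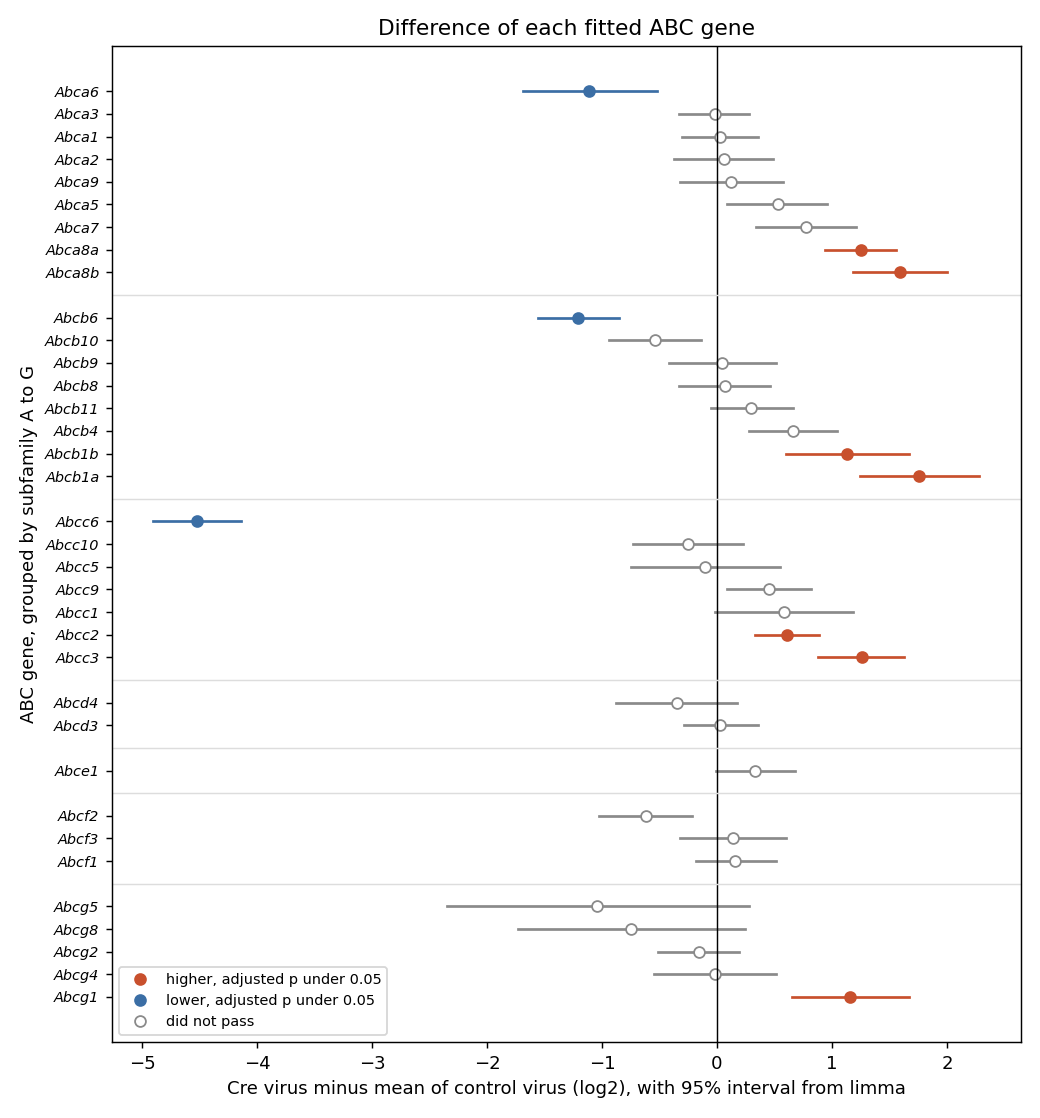
Cre minus control mean (log2) of the 35 fitted ABC genes grouped by subfamily A to G, with limma's 95% interval; filled points passed the test, red higher and blue lower. Subfamilies A, B and C each hold 3 genes that passed, in both directions, G holds 1, and D, E and F hold 0. For the few genes of D, E and F, 0 is near the background of 11.9% called in either direction.

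By subfamily, A had 2 rises and 1 fall among 9 fitted members (median 0.12), B 2 and 1 among 8 (median 0.18), and C 2 and 1 among 7 (median 0.45). Subfamily G had 1 rise among 5 (median -0.16). Subfamilies D, E and F had 0 calls by limma among 2, 1 and 3 members, with 0, 0 and 1 at an unadjusted p under 0.05. Over all fitted genes the shares were 6.71% that rose and 5.21% that fell. For the few members of D, E and F, 0 calls is near the background of 11.9% called in either direction. Rises and falls thus stood side by side within A, B and C, and no test of a difference between subfamilies was made.

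The 10 members left out as dim were Abca4, Abca12, Abca13, Abca14, Abca16, Abcc4, Abcc8, Abcc12, Abcd2 and Abcg3. Their values lay between 2.02 and 4.05 on every array and their differences between -0.73 and 0.33, a range in which changes cannot be read reliably. Of these, Abcc8 was at 4.05 and 3.61 against 3.15. Its control mean of 3.83 lay above the filter value of 3.77, so it was left out through its Cre value. Where a fitted gene had several probe sets, the dimmer ones often disagreed with the brightest: of 23 further probe sets above the filter value, 11 had the same sign as the one that stood for its gene. For the members past the test, 7 had 1 probe set, and the other 3 had 1 further probe set each, of which that of Abcg1 alone was above the filter value, with the sign of the first. ABC genes under other names were read apart from the family: Tap1, a peptide transporter of antigen presentation, was at 6.93 and 6.85 against 7.63 and just passed (0.74 ± 0.14 SE, adjusted p = 0.0499), Tap2 did not (0.42 ± 0.15 SE, adjusted p = 0.155), and Cftr was too dim to be fitted.

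Of 14 fitted receptors and factors known to act on ABC genes, 2 rose and 1 fell. Among all fitted genes 6.71% rose and 5.21% fell. By any amount, 6 of the 14 lay above both controls and 4 below both, against 49.7% and 33.6% of all fitted genes. For 14 genes these counts, and those of rises and falls, are near the background. Nr1i3, the xenobiotic receptor CAR, fell 9.07-fold (8.20 and 8.17 against 5.01, adjusted p = 0.00206). Nfe2l2, which encodes NRF2, an activator of antioxidant and efflux genes, rose 2.39-fold (8.86 and 8.91 against 10.14, adjusted p = 0.0117), and Nr0b2, a repressor of bile acid synthesis, rose 2.07-fold (8.62 and 8.42 against 9.56, adjusted p = 0.0262). Nr1h4, the bile acid receptor FXR, was at 8.31 and 9.12 against 8.46, and Nr1h3, the oxysterol receptor LXRalpha, at 7.47 and 7.55 against 7.19, and neither passed. Nr1i2, the receptor PXR, was at 7.24 and 7.25 against 7.29 and did not pass either. Ppara lay below both controls without passing (9.26 and 9.96 against 8.03, -1.58 ± 0.32 SE). So did Rxra (9.17 and 9.15 against 8.58, -0.58 ± 0.12 SE).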

How the data were processed

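The authors deposited 1 table of log2 expression per probe set for 45101 probe sets and 3 arrays, for which the submitters' processing notes name Partek 6.5 and RMA. Background correction, equalised array distributions and a summary per probe set are part of RMA, so a shift shared by all genes is hidden. No source used here names the log base, taken as 2 from the range of the values. Of the probe sets, 34945 listed 1 gene, 932 several and 9160 none, and 64 were array controls; only those with 1 gene were named, with symbols updated by Entrez ID for 34741. The platform annotation gave 92 probe sets for the ABC family, 26 of its genes having several.

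The comparison used lmFit and eBayes with an intensity trend (limma 3.58.1, R 4.3.3) on the brightest probe set of each gene, keeping genes with a mean over all arrays at or above the 30th percentile (3.77). Controls left 1 residual degree of freedom, and moderation added 3.18. Summed marker levels are sums of 2 to the power of each value. The fit was also run on simulated data with known changes, whose spread was drawn from limma's own fitted model. Recovery there rests in part on the assumptions of that model and is not used as support. All simulated arrays had the same spread for a gene, so the simulation cannot test whether the lone Cre array varies like the controls. Values on all arrays are given for members past the test or at least 1 log2 unit outside both controls, for the 5 brightest, and for pumps of the canalicular and basolateral lists; other members and genes of other lists were named to describe a group. The members and lists were chosen with earlier results of these data known. Alternatives covered moderation, filter, scaling, probe set choice, thresholds, symbols and each control left out. Start site sequences are from RefSeq, GRCm38.p6. Plots used Python 3.11.15 and matplotlib 3.10.9.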

Additional observations from a re-analysis of the deposited data

How the results depend on the processing

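The count of members that rose was 7, and 4 without a filter on dim genes and 0 at an adjusted p under 0.01; of those that fell it was 3, 5 after quantile normalization or at an adjusted p under 0.1, and 1 at an adjusted p under 0.01. Over all fitted genes, rises numbered 446 without a filter, 471 without shared or mixed probe sets, 92 at an adjusted p under 0.01 and 1780 under 0.1, and falls 1007 after quantile normalization, 255 at an adjusted p under 0.01 and 1003 under 0.1. Of all calls 56.3% were rises, 61.0% after median centring, 54.2% after quantile normalization and 46.7% without a filter, where 509 falls outnumbered the rises. Members at least 2 log2 units outside both controls numbered 0 above and 1 below. With 1 control left out no test is possible; by size alone 6 members were then above in both cases, and below between 2 (without control 1) and 5 (without control 2, adding Abca6, Abcg5 and Abcg8). The median over members was 0.03 without a filter, 0.08 after median centring, 0.03 after quantile normalization, -0.0038 with probe sets averaged, and 0.11 to 0.13 with a control left out. Called members became 5 in subfamily B, 1 in F, 2 in the mitochondrial and 1 in the translation group after quantile normalization. They became 0 in subfamily G with probe sets averaged, and 1 among canalicular pumps without shared or mixed probe sets. Among sterol and phospholipid exporters they became 2 after median centring. Values near 0 changed sign: Abca1 (-0.16), Abcc5 (0.02) and Abcd3 (-0.0038) with probe sets averaged, Abcc5 (0.06) without shared or mixed probe sets and Abcd3 (-0.0018) after quantile normalization. The cause was not tested. Abcc2 has no value without shared or mixed probe sets. All 10 calls among members were shared with the settings robust moderation, median centring, quantile normalization and the probe set brightest in the controls; the other 6 settings that kept the threshold shared 6 to 9. No paired analysis was possible because the groups share at most 1 replicate number.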
